A study of Mus musculus with 16 samples.

Results

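The receptor chains described here bind, or help to bind, interleukin 12, interleukin 18, interleukins 2, 4 and 7, and interferon gamma. They are encoded by 9 mouse genes, Il12rb1, Il18rap, Il18r1, Il2ra, Il2rb, Il2rg, Il7r, Il4ra and Ifngr1, and their members were taken as every probe set that the array's annotation pairs with 1 of these symbols alone. Of the 9 genes, 8 were measured, by 10 probe sets, out of 8251 named genes and 12422 tested probe sets on the array. Il12rb1 and Il4ra had 2 probe sets each, called brighter and dimmer below by their mean signal, and Il2rg was not analysed here.

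Messenger RNA was measured on 16 single-colour Affymetrix arrays in 6 populations of sorted mouse lymphocytes, which form 3 pairs of an innate-like and an adaptive population. The first pair came from the spleen of wild type C57BL/6 mice, with NKT cells (CD3+CD4+NK1.1+, 3 arrays) set against conventional CD4 T cells (CD3+CD4+NK1.1-, CD4T, 3 arrays). The second pair came from RTOC, an abbreviation that the labels leave unexplained. Its innate-like member, CD8aaT (TCRb+CD8a+CD8b-, 3 arrays), was selected with a high dose of the agonist Smcy, written as 10 mM, and its adaptive member, CD8abT (TCRb+CD8a+CD8b+, 3 arrays), with a low dose, written as 100 nM. Whether the unit of the high dose is a slip is not known, and CD8 phenotype and dose cannot be told apart in this pair. The third pair came from wild type C57BL/6 mice, with peritoneal B1 cells (IgM(hi)IgD(int)CD11b+, 2 arrays) against splenic B2 cells (IgM(int)IgD(hi)CD11b-, 2 arrays), so that B cell type and anatomical site cannot be told apart. Each spleen or peritoneal sample held about 100000 sorted cells and each RTOC sample about 50000. The animals' ages, any pooling of animals, and the strain behind the RTOC samples were not given.

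Cytokine receptors of this group work as pairs or triplets of chains. Most of the chains here lack enzymatic activity and signal through JAK kinases bound to their tails, which phosphorylate STAT transcription factors, while the IL-18 receptor belongs to the interleukin 1 receptor family and signals through the adaptor MyD88. Interleukins 12 and 18 are known as signals from myeloid cells that make NKT and NK cells release interferon gamma without an encounter with antigen, and interleukin 7 is known as a survival signal for resting T cells.

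The array medians differed between pairs (30.42 to 76.16 in intensity over the 16 arrays) and lay close within them, so levels were tested only within a pair. Of the genes of the sort gates, Cd8b1 was lower in CD8aaT than in CD8abT by 5.51 ± 0.34 on the log2 scale and Ighd, the IgD heavy chain, was lower in B1 than in B2 by 1.25 ± 0.18 (limma difference ± SE). Cd8a, gated as present in both RTOC populations, was lower in CD8aaT by 0.80 ± 0.14 (a difference of -0.80, adjusted p = 0.02957). Itgam, which encodes CD11b, did not pass the test between B1 and B2 (0.01 ± 0.17), nor did any Ighm probe set, and the NK1.1 gene had no probe set of its own. The summed intensity of 10 T cell marker genes was 2875 to 7459 in the T cell arrays and 1476 to 3138 in the B cell arrays, and that of 9 B cell marker genes was 379.9 to 1850 and 11720 to 14290. Replicates 2 and 3 of NKT and of CD4T lay much closer to each other (SD of their log2 difference 0.13 and 0.16) than either lay to replicate 1 (0.38 to 0.63). On replicate 1 of both groups a probe set for the 5′ end of 18S ribosomal RNA read 674.9 and 1326, against 52.65 to 59.16 on their replicates 2 and 3. It was also high on replicate 1 of B2 and B1 (877 and 776.5, against 62.65 and 33.44 on replicate 2). On the RTOC arrays it ranged from 66.51 to 857.5 and was lowest on replicate 1 of each group. The labels do not say whether replicates came from separate animals, and the p-values therefore reflect the sample-to-sample spread, which may be technical.

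Sequences upstream of the receptor genes are shown for the IL-18 receptor genes, which lie side by side on mouse chromosome 1, and for Il7r and Ifngr1, whose signals moved together across the arrays. RefSeq windows of 300 bases, which run from upstream of an annotated start to just past it (assembly GRCm38.p6), were searched on both strands for 5 short motifs known from T cell factors: TTCNNNGAA (STAT), GGTGTGA (T-box), TGTGGT (RUNX), GGAAGT (ETS) and GTAAACA (FOXO). Capitals mark a match, N stands for any base, and a match is a string of letters and not a bound site. The STAT, T-box, RUNX, ETS and FOXO strings occurred in 8.3%, 3.98%, 16.76%, 23.77% and 3.65% of all 32851 such windows. Windows were matched for 7 of the 9 genes, all but Il12rb1 and Il2rb. Of those not printed, that of Il2ra held an ETS string at -35, that of Il2rg a RUNX string at -227, the middle start of Il18r1 a RUNX string at 22 and the same ETS letters as its first window, at -158, and that of Il4ra none of the strings.

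Il18r1, first start, chr1:40465302-40465601, plus strand, with an ETS string on the reverse strand at -89 from the start:
Il18r1: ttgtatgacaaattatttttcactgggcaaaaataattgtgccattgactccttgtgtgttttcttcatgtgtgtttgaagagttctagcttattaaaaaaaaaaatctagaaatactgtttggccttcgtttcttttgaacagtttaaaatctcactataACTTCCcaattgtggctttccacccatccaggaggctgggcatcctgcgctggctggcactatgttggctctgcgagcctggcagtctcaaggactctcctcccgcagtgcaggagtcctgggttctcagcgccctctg
Il18r1, most downstream of its annotated starts, chr1:40465756-40466055, plus strand, with STAT strings at -219 and -152:
Il18r1: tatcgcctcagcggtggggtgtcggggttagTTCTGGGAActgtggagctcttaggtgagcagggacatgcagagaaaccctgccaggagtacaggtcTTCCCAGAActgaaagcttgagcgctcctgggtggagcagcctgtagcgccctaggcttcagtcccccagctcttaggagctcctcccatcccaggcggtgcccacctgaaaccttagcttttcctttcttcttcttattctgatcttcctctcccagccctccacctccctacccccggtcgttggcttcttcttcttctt
Il18rap, chr1:40515112-40515411, plus strand, with an ETS string at -77 and a RUNX string on the reverse strand at 32 bases past the start:
Il18rap: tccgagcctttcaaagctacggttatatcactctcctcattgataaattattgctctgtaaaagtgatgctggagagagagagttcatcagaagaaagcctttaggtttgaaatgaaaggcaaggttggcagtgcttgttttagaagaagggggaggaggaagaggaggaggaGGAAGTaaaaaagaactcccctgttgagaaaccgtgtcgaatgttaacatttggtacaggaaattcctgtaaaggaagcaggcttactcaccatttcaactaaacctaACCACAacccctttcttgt
Il7r, chr15:9529827-9530126, minus strand, with a STAT string at -142, an ETS string on the reverse strand at -49 and a RUNX string at 4:
Il7r: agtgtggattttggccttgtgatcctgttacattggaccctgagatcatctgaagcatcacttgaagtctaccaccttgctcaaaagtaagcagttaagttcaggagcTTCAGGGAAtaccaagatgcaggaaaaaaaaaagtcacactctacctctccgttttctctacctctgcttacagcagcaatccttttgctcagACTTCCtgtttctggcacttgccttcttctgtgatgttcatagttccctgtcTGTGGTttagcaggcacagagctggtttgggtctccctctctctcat
Ifngr1, chr10:19591699-19591998, plus strand, with none of the 5 strings:
Ifngr1: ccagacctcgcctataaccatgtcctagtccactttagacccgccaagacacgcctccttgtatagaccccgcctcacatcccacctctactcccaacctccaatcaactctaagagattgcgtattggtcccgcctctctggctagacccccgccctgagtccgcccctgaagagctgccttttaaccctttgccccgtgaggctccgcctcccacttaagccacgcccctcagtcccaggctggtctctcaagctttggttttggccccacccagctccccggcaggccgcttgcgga

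Both IL-18 receptor genes held an ETS string near a start, but so did Il7r and Il2ra. Of all windows 23.77% held an ETS string. Both the most downstream start of Il18r1 and that of Il7r held a STAT string, against 8.3% of all windows. Il18r1 was searched at more starts than the other genes, and these strings do not single out the receptor genes. Il18r1 and Il18rap were direct neighbours in the annotation, with Il1rl1 before and Slc9a4 after them. Neighbours from the same receptor families also stood beside Il2ra (Il15ra), Il4ra (Il21r) and Ifngr1 (Il22ra2).

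The clearest differences among the receptors lay between NKT and CD4T cells. Il12rb1, the chain shared by the receptors for interleukins 12 and 23, and Il18rap, the accessory chain of the IL-18 receptor, were higher in NKT cells. On the brighter Il12rb1 probe set the log2 intensity was 6.78, 7.49 and 7.53 on the 3 NKT arrays and 5.85, 5.85 and 6.00 on the 3 CD4T arrays. The lowest NKT array therefore stood above the highest CD4T array, and replicate 1 was the lowest of the NKT arrays. The difference was 1.37 ± 0.18 on the log2 scale, a 2.59-fold higher intensity (limma, Benjamini-Hochberg adjusted p = 0.0007032, 95% interval 0.98 to 1.77). The dimmer Il12rb1 probe set gave 6.66, 6.78 and 6.67 in NKT and 4.94, 5.30 and 5.48 in CD4T, again without overlap. Its difference was 1.46 ± 0.28 or 2.75-fold (limma adjusted p = 0.01207), and the 2 probe sets moved alike in this pair. The dimmer one is of a type whose probes can match other transcripts of similar sequence. Its call was lost when any 1 of 3 arrays was left out, with an adjusted p of 0.05108 without CD4T replicate 1, 0.06359 without NKT replicate 2 and 0.05185 without NKT replicate 3.

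Il18rap read 7.01, 7.05 and 7.18 in NKT and 6.18, 5.61 and 5.58 in CD4T. All 3 NKT arrays lay within a narrow band above every CD4T array, of which replicate 1 was the highest. The difference was 1.29 ± 0.17, 2.45-fold (limma adjusted p = 0.0005454, 95% interval 0.93 to 1.65). Il18r1, the chain that binds interleukin 18 itself, read 8.14, 7.29 and 7.44 in NKT and 6.78, 6.75 and 6.82 in CD4T. These groups did not overlap either, and the same-numbered differences were 1.36, 0.54 and 0.62. The fit gave 0.84 ± 0.46 (1.79-fold) and did not pass the test (limma adjusted p = 0.9996, and 0.3753 with a block for the replicate number), with a 95% interval from -0.14 to 1.82. The SE of this gene was drawn from all 6 groups, and it was 0.25 without CD8aaT replicate 2 (difference unchanged, adjusted p = 0.2018).

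In all, 3 of the 10 receptor probe sets passed the test as higher in NKT, and none as lower. Of all tested probe sets 1.09% were called higher in that comparison. In 4 of the 10 the groups did not overlap and NKT was higher, against 7.19% of all probe sets. The median difference over the 10 was 0.36 and 8 of them were above 0, whereas over all probe sets the median was -0.03 and 43.15% were above 0.

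The chains of the IL-2 receptor family did not pass the test between NKT and CD4T. Il2ra, the chain that raises affinity for interleukin 2, read 4.96, 5.21 and 5.50 in NKT and 4.73, 5.01 and 4.99 in CD4T (difference 0.31 ± 0.22, 95% interval -0.17 to 0.79). Il2rb, the signalling chain shared by the receptors for interleukins 2 and 15, read 5.51, 6.35 and 6.04 in NKT and 5.71, 5.49 and 5.66 in CD4T. The groups overlapped, since NKT replicate 1 lay below 2 of the CD4T arrays, and the difference was 0.34 ± 0.17 (limma adjusted p = 0.9218, 95% interval -0.02 to 0.71). Il7r, the specific chain of the IL-7 receptor, was among the highest signals on the array in both populations, at 10.23, 10.96 and 10.89 in NKT and 9.56, 10.69 and 10.72 in CD4T. Replicate 1 was the lowest of both groups, and the difference of 0.37 ± 0.41 (95% interval -0.50 to 1.24) had its sign turned to -0.01 without CD4T replicate 1.

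Il4ra, the chain that binds interleukin 4, and Ifngr1, the ligand-binding chain of the interferon gamma receptor, overlapped between NKT and CD4T. The brighter Il4ra probe set read 7.36, 8.38 and 8.20 in NKT and 7.42, 8.52 and 8.60 in CD4T (difference -0.20 ± 0.31, 95% interval -0.88 to 0.47). The dimmer Il4ra probe set ranged from 4.84 to 5.23 in NKT and from 4.81 to 5.72 in CD4T, with a difference of -0.20 ± 0.27. Ifngr1 read 6.76, 7.06 and 7.22 in NKT and 6.64, 6.93 and 6.91 in CD4T (difference 0.19 ± 0.22, 95% interval -0.27 to 0.65). Replicate 1 was again the lowest array of each group for Ifngr1 and for the brighter Il4ra probe set.

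**Figure D1:**
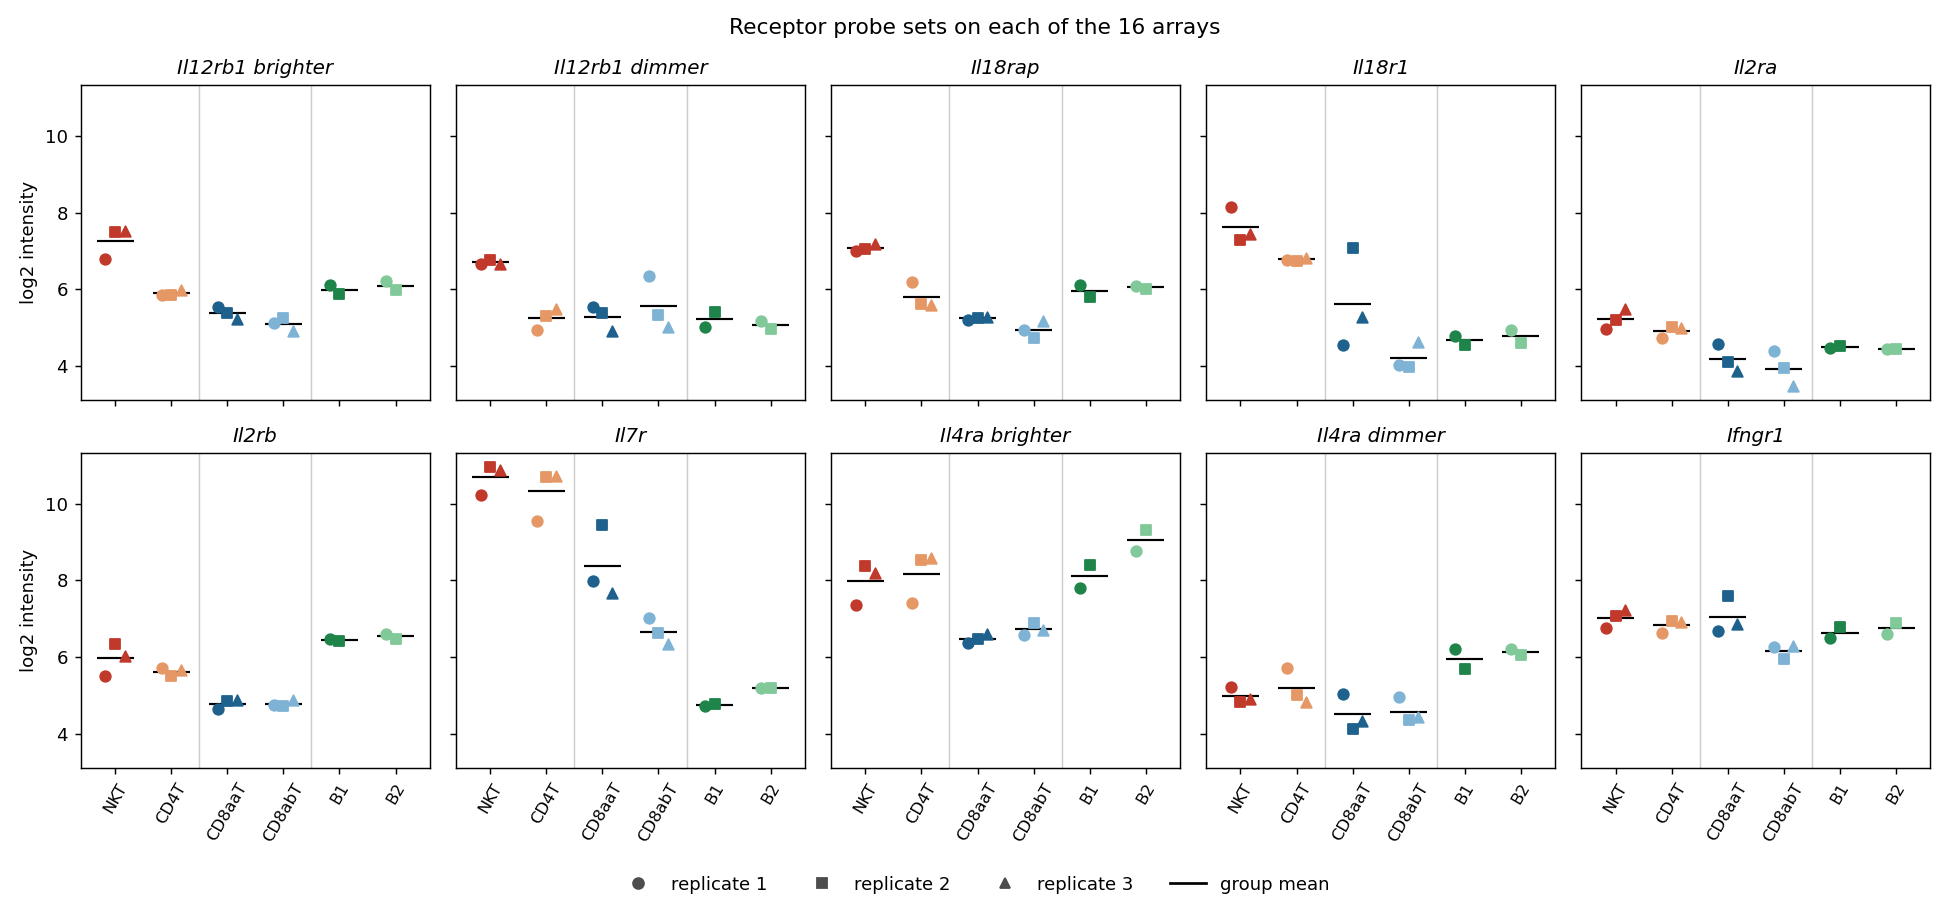
Log2 intensity (y axis) of the 10 receptor probe sets on each of the 16 arrays, by population (x axis); marker shapes give the replicate number and bars the group mean. Il12rb1 and Il18rap stand higher on all 3 NKT arrays than on any CD4T array, and CD8aaT replicate 2 stands apart for Il18r1, Il7r and Ifngr1.

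In the RTOC pair other receptors carried the larger differences. Il7r and Ifngr1 were higher on every CD8aaT array than on any CD8abT array, and Il18r1 was higher in each same-numbered pair. Il7r read 7.97, 9.45 and 7.68 in CD8aaT and 7.01, 6.63 and 6.33 in CD8abT, with replicate 2 far above the other CD8aaT arrays. The difference was 1.71 ± 0.41, 3.28-fold with a 95% interval from 0.84 to 2.58. It did not pass the test without the replicate number in the fit (limma adjusted p = 0.1833) and did with it (adjusted p = 0.01106, SE 0.27). The same-numbered differences were 0.96, 2.82 and 1.35. Without CD8aaT replicate 2 the difference was 1.17 ± 0.33 (adjusted p = 0.4731), and with the replicate block and without both replicate 2 arrays it was 1.16 ± 0.16 (adjusted p = 0.01498).

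Ifngr1 read 6.67, 7.59 and 6.87 in CD8aaT and 6.27, 5.94 and 6.28 in CD8abT. The groups did not overlap, and CD8aaT replicate 2 was again the highest. The difference was 0.88 ± 0.22, 1.84-fold with a 95% interval from 0.42 to 1.34 (limma adjusted p = 0.2097, and 0.03695 with the replicate block). The same-numbered differences were 0.41, 1.65 and 0.59, and without replicate 2 of both groups the blocked difference was 0.50 ± 0.12 and did not pass the test (adjusted p = 0.1037). Il18r1 read 4.55, 7.07 and 5.27 in CD8aaT and 4.02, 3.96 and 4.62 in CD8abT. CD8aaT replicate 1 lay below CD8abT replicate 3, so the groups overlapped, and the same-numbered differences were 0.52, 3.11 and 0.65. The fitted difference of 1.43 ± 0.46 (limma adjusted p = 0.5419, and 0.07765 with the block) was 0.71 ± 0.28 without CD8aaT replicate 2.

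CD8aaT replicate 2 thus gave the highest CD8aaT value for 3 receptor genes, and its intensity summed over the 8 receptor genes was 1240, against 590.1 and 577.8 on the other CD8aaT arrays and 394.6 to 430.3 on the CD8abT arrays. Another quantity also separated these groups: the beta-actin control signal at the 3′ end over that at the 5′ end was 5.80, 5.76 and 5.15 in CD8aaT and 6.57, 11.55 and 7.92 in CD8abT. With that ratio as a covariate the difference was 1.23 ± 0.44 for Il7r and 0.65 ± 0.24 for Ifngr1 (limma adjusted p = 0.9333 and 0.9524); its part in the results was not tested further.

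**Figure D2:**
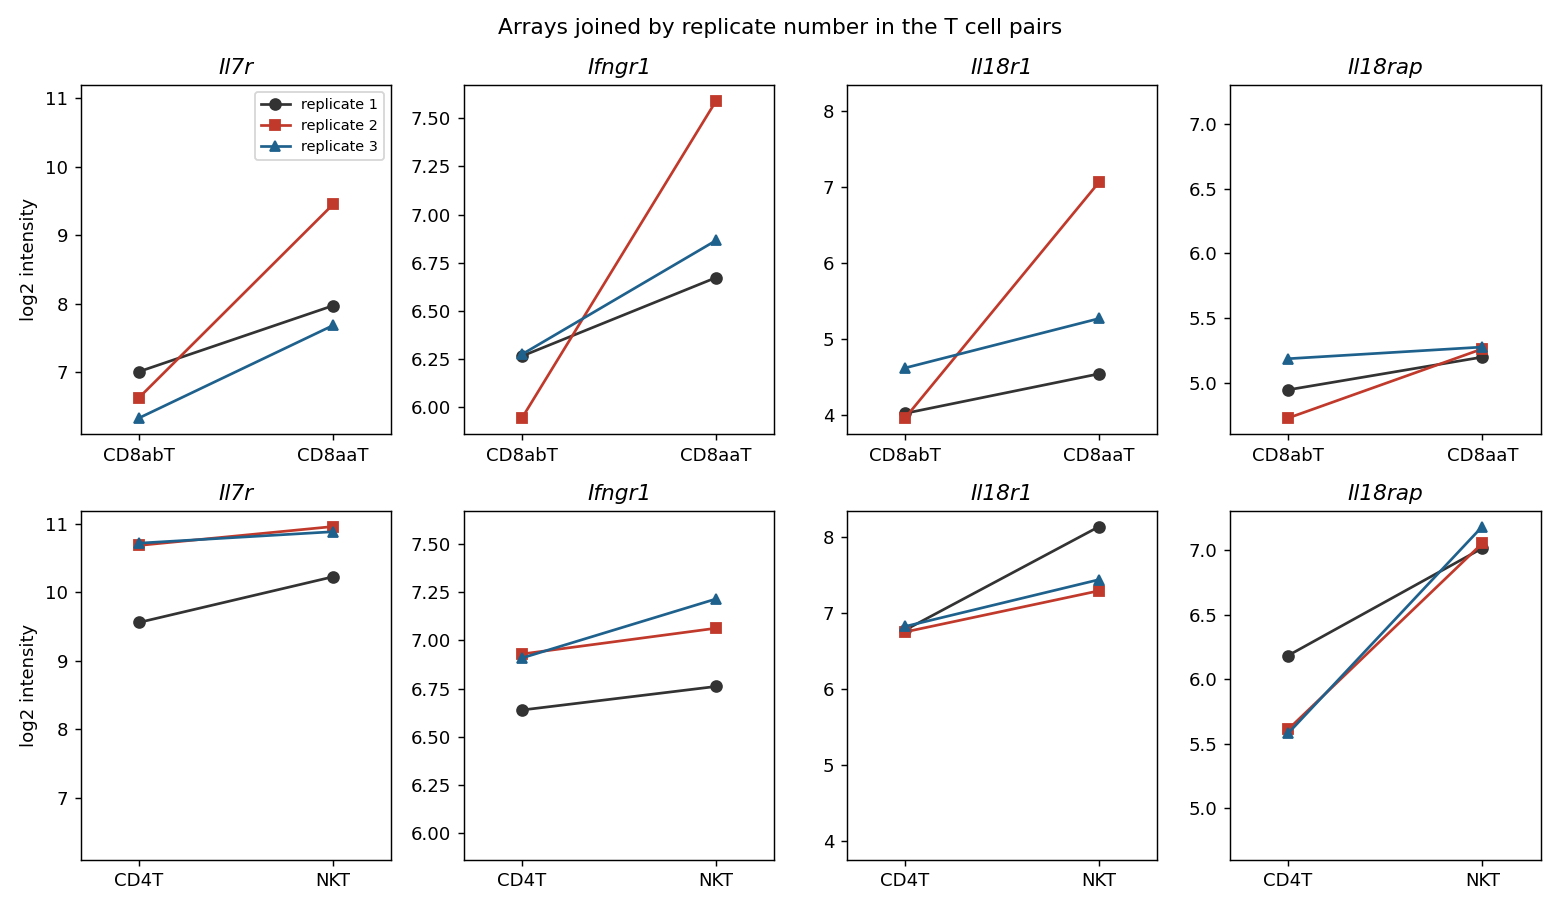
Log2 intensity (y axis) of Il7r, Ifngr1, Il18r1 and Il18rap on the arrays of the RTOC pair (upper row) and the splenic T cell pair (lower row), with lines joining arrays of the same replicate number. In the RTOC pair all lines rise for Il7r, Ifngr1 and Il18r1 and the steepest is replicate 2; for Il18rap the NKT arrays lie at 7.01 to 7.18.

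The receptors that separated NKT from CD4T showed small differences here. The brighter Il12rb1 probe set read 5.54, 5.37 and 5.22 in CD8aaT and 5.11, 5.25 and 4.92 in CD8abT (difference 0.28 ± 0.18, 95% interval -0.11 to 0.68). The dimmer one read 5.53, 5.38 and 4.92 against 6.34, 5.33 and 5.01 and gave a difference of -0.28 ± 0.28, which was 0.11 without CD8abT replicate 1, the highest of these 6 arrays. The 2 Il12rb1 probe sets thus differed in sign in this pair. Il18rap read 5.20, 5.26 and 5.27 in CD8aaT and 4.94, 4.72 and 5.18 in CD8abT; the groups did not overlap, but the difference of 0.29 ± 0.17 did not pass the test (limma adjusted p = 0.8914, 95% interval -0.07 to 0.65).

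Among the remaining chains, Il2ra read 4.58, 4.10 and 3.87 in CD8aaT and 4.38, 3.94 and 3.48 in CD8abT, higher in 3 of 3 same-numbered pairs by 0.16 to 0.39 (difference 0.25 ± 0.22, limma adjusted p = 0.9022, and 0.1991 with the block). Il2rb lay between 4.64 and 4.87 on all 6 arrays, with a difference of 0.01 ± 0.17 and a 95% interval from -0.36 to 0.37. The brighter Il4ra probe set read 6.35, 6.46 and 6.60 in CD8aaT and 6.58, 6.89 and 6.71 in CD8abT, lower in 3 of 3 same-numbered pairs (difference -0.26 ± 0.31, limma adjusted p = 0.9092, and 0.208 with the block). The dimmer Il4ra probe set gave -0.08 ± 0.27.

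Without the block 0 of the 10 receptor probe sets were called by limma in the RTOC pair, where 0.153% of all probe sets were called higher in CD8aaT. At an unadjusted p under 0.05 there were 3 of 10, against 6.03% of all. With the block 2 of 10 were called higher, those of Il7r and Ifngr1, against 2.62% of all. In 3 of the 10 CD8aaT lay wholly above CD8abT, against 5.76% of all. The median difference over the 10 was 0.27 and 7 of them were above 0, against -0.05 and 39.17% for all probe sets.

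Between the B cell populations the largest difference was in Il4ra, the receptor chain through which interleukin 4 acts on B cells. The brighter Il4ra probe set read 7.81 and 8.40 in B1 and 8.78 and 9.32 in B2, so that both B1 arrays lay below both B2 arrays. The difference was -0.95 ± 0.39, a 1.93-fold lower intensity in B1 (95% interval -1.77 to -0.12), and did not pass the test (limma adjusted p = 0.7882). The same-numbered differences were -0.97 and -0.92. With the replicate block the limma adjusted p was 0.001831, but 2 arrays per group are too few to show a pairing. The dimmer Il4ra probe set read 6.21 and 5.68 in B1 and 6.21 and 6.04 in B2 and overlapped (-0.18 ± 0.33), so the probe sets of this gene differed in size.

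Il7r was among the dimmer signals on the B cell arrays, at 4.72 and 4.76 in B1 and 5.20 and 5.18 in B2. Both B1 arrays were lower, and the difference of -0.45 ± 0.50 did not pass the test (limma adjusted p = 0.9999), with the SE again drawn from all 6 groups. Il2rb read 6.46 and 6.42 in B1 and 6.61 and 6.47 in B2, also without overlap, and differed by only -0.10 ± 0.21. Il2ra lay between 4.44 and 4.51 on all 4 arrays, Ifngr1 between 6.48 and 6.90, and Il18r1 between 4.55 and 4.95. The brighter Il12rb1 probe set (5.88 to 6.21) and Il18rap (5.80 to 6.11) overlapped between B1 and B2, with differences of -0.11 ± 0.22 and -0.10 ± 0.20.

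Without the block none of the 10 receptor probe sets was called by limma in the B cell pair, where 0.354% of all probe sets were called lower in B1. At an unadjusted p under 0.05 there was 1, the brighter Il4ra probe set, against 4.782% of all. In 3 of the 10 B1 lay wholly below B2, against 20.1% of all probe sets with 2 arrays a group. The median over the 10 was -0.11 and 2 of them were above 0, against -0.05 and 37.16% for all probe sets.

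**Figure D3:**
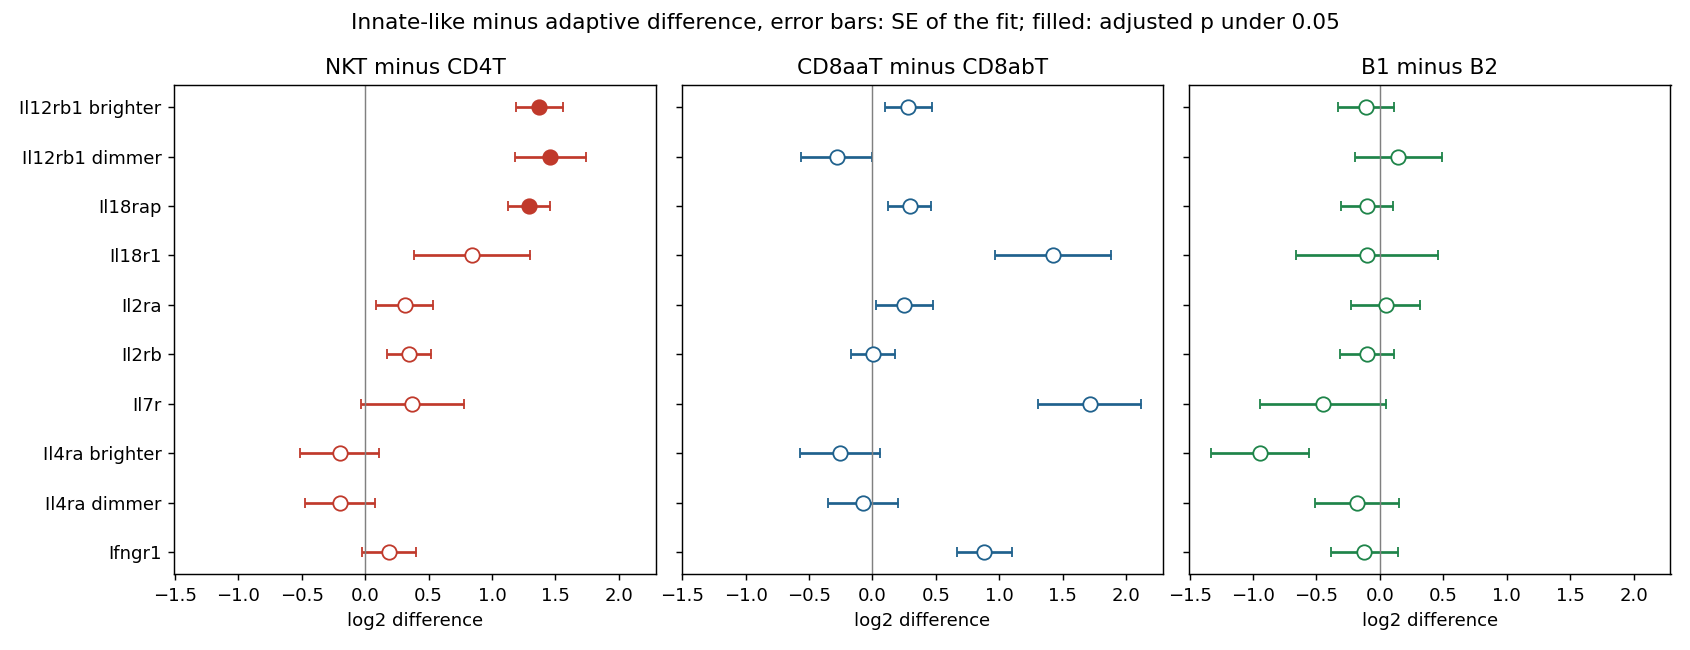
Log2 difference, innate-like minus adaptive (x axis), of the 10 receptor probe sets in the 3 pairs; points are limma estimates, bars 1 SE, and filled points passed an adjusted p of 0.05 without the replicate block. The 3 filled points are Il12rb1 (both probe sets) and Il18rap in NKT minus CD4T, while the largest open points are Il7r and Il18r1 in CD8aaT minus CD8abT and Il4ra in B1 minus B2.

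Whether a receptor's difference was itself different between pairs was tested in the same fit. The NKT minus CD4T difference exceeded the B1 minus B2 difference by 1.48 ± 0.29 for the brighter Il12rb1 probe set (limma adjusted p = 0.01669) and by 1.39 ± 0.26 for Il18rap (adjusted p = 0.01382). These were 2 of the 10 receptor probe sets, against 1.35% of all probe sets called in that contrast in either direction, and the calls were lost without any 1 of 3 B cell arrays (adjusted p from 0.05231 to 0.1231), and for Il12rb1 also without NKT replicate 2 (0.05203) or NKT replicate 3 (0.05113). The splenic pair exceeded the RTOC pair by 1.09 ± 0.26 for the brighter Il12rb1 probe set, 1.74 ± 0.40 for the dimmer and 1.00 ± 0.24 for Il18rap. These did not pass the test without the replicate block (adjusted p = 0.09511, 0.07412 and 0.09376, with 0.692% of all probe sets called). At an unadjusted p under 0.05 there were 5 of the 10 receptor probe sets, against 5.047% of all. The 3 named contrasts passed the test with the block (adjusted p = 0.01126, 0.003887 and 0.02858, with 3.02% of all called).

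For the receptors that stood higher in CD8aaT the differences between pairs ran the other way without passing the test. The NKT minus CD4T difference was below the CD8aaT minus CD8abT difference by 1.34 ± 0.57 for Il7r (a contrast of -1.34, limma adjusted p = 0.8579, and 0.1011 with the block). For Ifngr1 the contrast was -0.69 ± 0.30 (adjusted p = 0.8901, and 0.2484 with the block), and for Il18r1 it was -0.59 ± 0.65. Between the RTOC and the B cell pair 0 of 10 receptor probe sets were called by limma, against 0.733% of all, with 2 at an unadjusted p under 0.05, against 4.106% of all. The largest contrast was 2.16 ± 0.64 for Il7r (adjusted p = 0.3211).

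Levels across all 6 populations were set side by side as the percentile of a probe set among all 12422 on its own array, as a description without a test. Il7r had the widest span of these receptors, from 98.91 in NKT and 98.47 in CD4T, whose arrays overlapped, through 93.59 in CD8aaT and 80.14 in CD8abT to 28.53 in B2 and 20.14 in B1. From CD4T downwards the arrays of neighbouring populations did not overlap, although the lowest CD4T and the highest CD8aaT array lay close, at 97.63 and 97.46. Il18r1 stood at 81.79 in NKT and 70.03 in CD4T, at 60.48 and 33.13 in CD8aaT and CD8abT, and at 19.67 and 18.38 in B2 and B1. Its CD8aaT arrays overlapped with CD4T and CD8abT and, through replicate 2 at 84.15, also with NKT (77.13 to 89.01). Those of B2 and B1 overlapped with each other, and the other steps between neighbouring populations did not overlap.

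For the brighter Il12rb1 probe set and for Il18rap only NKT stood apart from the next population, at 76.75 and 74.23. The other 5 populations lay between 46.24 and 58.55 for Il12rb1 and between 45.6 and 55.9 for Il18rap, with overlapping neighbours. Ifngr1 was highest in CD8aaT at 84.06, ahead of CD8abT (73.05), NKT (73.02) and CD4T (70.47), which overlapped, and of B2 (60.42) and B1 (58.86). Il4ra, on its brighter probe set, ran from 92.8 in B2 down to 77.2 in CD8aaT, and only the last step, from CD8abT at 81.46, had no overlap. Il2rb ran from 46.07 in CD8abT to 56.42 in B2 with every neighbour overlapping, and Il2ra lay at 27.71 to 41.69 in the T cell populations and at 12.25 and 14.37 in B2 and B1. The dimmer Il12rb1 probe set was also highest in NKT (68.23), where it overlapped with CD8abT (61.6), and the dimmer Il4ra probe set ran from 37.55 in NKT to 47.71 in B2 with overlap all along the order.

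**Figure D4:**
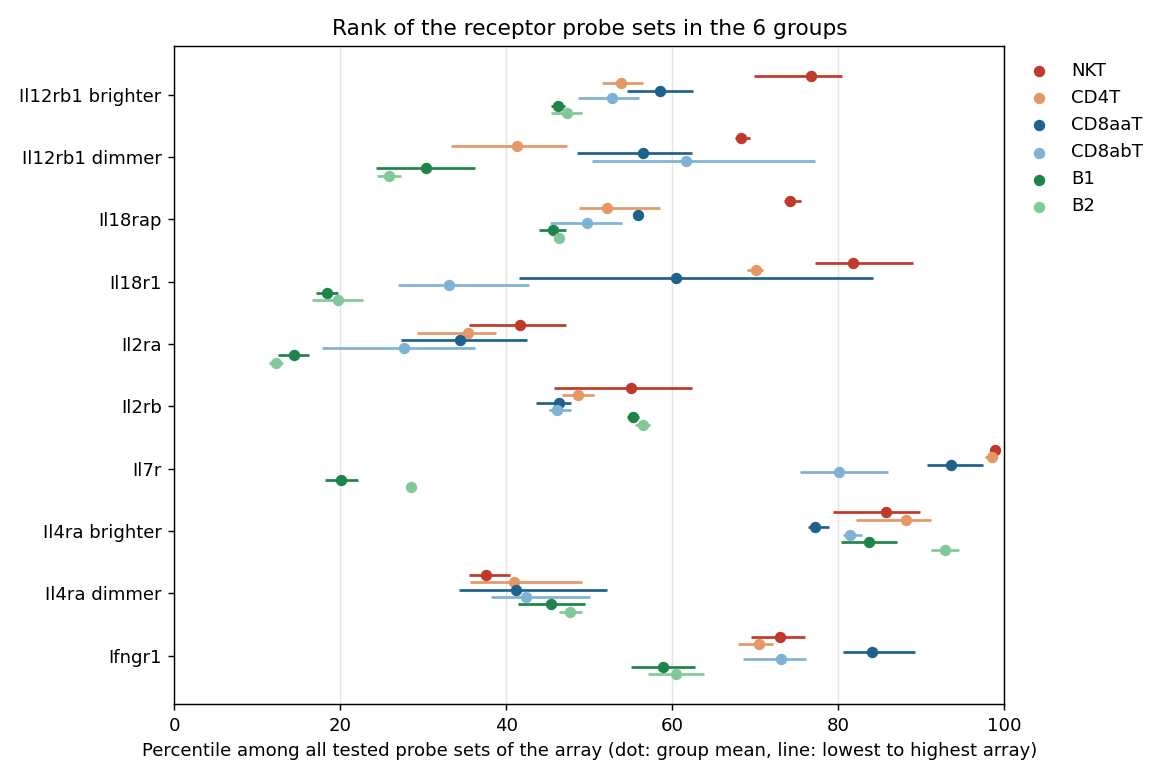
Percentile of each receptor probe set among the 12422 of its array (x axis, 0 to 100) in the 6 populations; dots are group means and lines run from the lowest to the highest array. Il7r spans from 98.91 in NKT to 20.14 in B1, and NKT lies to the right of the other populations for Il12rb1 (brighter) and Il18rap.

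No partner chain of these receptors passed the test without the replicate block. Of 19 listed partner and related chains 13 were measured, and 0 were called by limma in any pair; with the block 1 was called in each T cell pair, Il10rb, the shared second chain of the IL-10 receptor family (0.54 ± 0.19 in both, adjusted p = 0.01686 in NKT and 0.03124 in CD8aaT). Il12rb2, which pairs with Il12rb1 to form the IL-12 receptor, differed by 0.02 ± 0.15 between NKT (mean log2 intensity 4.17) and CD4T (4.16). Ifngr2, the second chain of the interferon gamma receptor, differed by -0.48 ± 0.25 in NKT and by -0.12 ± 0.25 in CD8aaT. The lists named here were chosen with earlier results of these data known, and a level below that of most probe sets does not show whether a gene was silent.

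Of the ligands, 10 of 12 were measured. Ifng, the ligand of Ifngr1, read 7.69, 8.36 and 8.43 in NKT and 5.36, 5.51 and 5.73 in CD4T, a difference of 2.62 ± 0.20 or 6.16-fold (limma adjusted p = 3.474e-06). Il4, the ligand of Il4ra, read 9.36, 8.22 and 8.11 in NKT and 5.04, 4.53 and 4.61 in CD4T, a difference of 3.84 ± 0.26 (adjusted p = 7.855e-07). In NKT cells 2 of 10 ligands thus rose, against 1.09% of all probe sets called higher. The receptor chains that bind these 2, Ifngr1 and Il4ra, did not pass the test. No ligand was called in the RTOC or B cell pair, the largest differences being in Il18 at -0.29 and 0.91.

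Downstream of the receptors, 0 of 9 measured JAK and STAT genes passed the test without the block in any pair. Jak2, a kinase of the IL-12 and interferon gamma receptors, was 1.22 ± 0.30 higher in NKT (limma adjusted p = 0.06789, and 0.0001675 with the block). Stat4, the main STAT of IL-12 signalling, was 1.06 ± 0.40 higher in NKT (adjusted p = 0.4631, and 0.0008931 with the block) and 0.70 ± 0.40 higher in CD8aaT (0.8914, and 0.02733 with the block). Stat4 had the largest difference of this list in B1, at -1.26 ± 0.49. Of 6 measured adaptors of IL-18 signalling none was called without the block; Tab2 differed most in the T cell pairs, by 0.51 ± 0.49 in NKT and 0.68 ± 0.49 in CD8aaT, the latter called with the block (adjusted p = 0.0358). Irak1 differed most in B1, by 0.52.

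Feedback inhibitors of cytokine receptors gave 3 calls among 10 measured genes in NKT, 2 higher and 1 lower. Over all probe sets 1.09% were called higher in NKT, and no share called lower was taken in NKT or in CD8aaT. Socs2 rose by 2.61 ± 0.29 and Cish by 0.58 ± 0.13, and Socs3 fell by 1.83 on the log2 scale (limma adjusted p = 0.0001026, 0.04032 and 0.002661). Socs3, an inhibitor known from the signalling of interleukin 6 family receptors, was also the 1 member called in CD8aaT, where it fell by 1.77 (adjusted p = 0.02309). It read 5.83, 6.75 and 5.64 in CD8aaT and 7.80, 8.20 and 7.53 in CD8abT. In B1 none was called and the largest difference was in Ptpn6 (-1.12).

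In the lists of STAT5 and interferon gamma targets, the genes called without the block were all in the B cell pair. Socs2 and Cish, called higher in NKT, were counted with the feedback inhibitors and not in these lists. Of 8 STAT5 targets none was called in NKT or CD8aaT, where Ccnd2 (0.73) and Bcl2 (0.38) differed most, although Ccnd2 and Ccnd3 (0.72) were called higher in NKT with the block. Myc was higher in B1 by 1.70 ± 0.27 (limma adjusted p = 0.004429). Of 14 interferon gamma targets none was called in NKT (median difference 0.43, against -0.03 over all probe sets) or in CD8aaT (median 0.31, against -0.05). With the block 3 were higher in NKT, among them Irf1 (0.75 ± 0.25, adjusted p = 0.002439) and Irf8 (1.05 ± 0.34, adjusted p = 0.0003663), and 2 in CD8aaT, of which Gbp3 differed most (0.97). Of all probe sets 2.62% were called higher in CD8aaT with the block, and no such share was taken in NKT. In B1 Gbp2 was higher by 2.55 ± 0.30, and Irf8 fell by 1.91 and Ciita by 0.71 (adjusted p = 0.0003311, 0.04026 and 0.02224).

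Of 12 measured transcription factors known to act on the receptor genes, Klf2, a factor of resting T cells, fell by 1.54 in NKT (limma adjusted p = 0.003377). With the block Gfi1 (1.51 ± 0.40), a repressor known to act on Il7r, Foxo3 (0.92 ± 0.26) and Gata3 (0.86 ± 0.31) were also called higher in NKT. In CD8aaT 0 passed without the block and 2 with it, Ets1 at 1.08 and Gata3 at 0.74 ± 0.31, where 2.62% of all probe sets were called higher with the block. No blocked share was taken in NKT. In B1 none was called and Runx1 differed most (-0.63).

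Markers of other cell types moved in the same pairs as the receptors, and their part in the receptor differences was not tested. In NKT 4 of 8 NK cell markers were called higher (6 with the block), against 1.09% of all probe sets without the block. The summed intensity of that list was 1143 to 1690 in NKT and 354.8 to 451.7 in CD4T. NK cell receptors are also known on NKT cells. Of 12 macrophage markers Lyz2 (2.08 ± 0.35) and Csf1r (0.60 ± 0.13) were called higher in NKT, with summed intensities of 655.1 to 835.2 and 491.9 to 690.9, and of 9 B cell markers Cd72 was (1.90 ± 0.38). In CD8aaT Klrd1 was the 1 NK cell marker called higher (2.20 ± 0.37; summed intensity 765.7 to 1072 against 235.3 to 429.1 in CD8abT), and no macrophage or B cell marker was. In B1 Lyz2 was higher (2.29 ± 0.43), with macrophage sums of 895.3 to 1087 against 812.7 to 817.6 in B2, and Cd72 and Cd22 were lower. Of 6 regulatory T cell markers Tnfrsf18 was called higher in NKT (1.00 ± 0.17), with sums of 897.7 to 960.7 against 657.4 to 746.7 in CD4T. The median difference of these markers in NKT was nevertheless -0.155, against -0.0254 over all probe sets, and with the block 1 was called lower. The same list summed to 742.1 to 784.9 in CD8aaT and 524.7 to 609 in CD8abT, where Tnfrsf18 was called with the block alone (0.90 ± 0.17, adjusted p = 0.003265), and Ctla4 was higher in B1 (1.71 ± 0.37). Of 10 T cell markers 4 were called lower in CD8aaT with the block, Cd2, Cd5, Cd6 and Thy1, with sums of 2875 to 5261 against 3559 to 6864. In NKT 1 of these 10 was called higher and 2 lower with the block. No share of all probe sets was taken with the block in NKT, or for calls lower in CD8aaT. The blocked counts of these marker lists therefore do not single them out. Of 9 markers of thymic epithelium and stroma Epcam was called higher in B1 (1.17 ± 0.15), and none of 9 granulocyte and mast cell markers was called in any pair. In such sorted bulk samples, fewer cells with a receptor and less receptor RNA per cell cannot be told apart.

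The receptors fell into sets by how their signals moved over the 16 arrays, each probe set being centred on its mean within a pair. Il12rb1 and Il18rap had a Pearson correlation of 0.85, Il7r and Ifngr1 one of 0.91, and Il18r1 correlated more closely with Ifngr1 (0.78) and Il7r (0.72) than with its partner chain Il18rap (0.50). These values, over 16 arrays that share groups and array-wide shifts, are descriptions and repeat the differences between groups. CD8aaT replicate 2 stood far above the other CD8aaT arrays for Il18r1, Il7r and Ifngr1 (7.07, 9.45 and 7.59). Correlations without that array were not computed. Over all named genes, those most alike to Il12rb1 were Dock5 (0.98), Nedd4 (0.96) and Rora (0.95), and those most alike to Il18rap were Fasl (0.94), D13Ertd608e (0.93) and Mmp9 (0.92). For Il7r they were Rsad2 (0.93), Ifngr1 itself and Ifi204 (0.91), and for Ifngr1 they were Il7r, Rsad2 (0.89) and Tnfsf11 (0.87). Il18r1 was most like Cst7 (0.89), Blk (0.88) and B2m (0.87). Il4ra was most like Mafk, Egr1 and Cdc42se1 (0.90 each), Il2ra like Sec11c (0.90), 2610001J05Rik (0.88) and Hdgf (0.87), and Il2rb, with the lowest values of the 8 genes, like Agrn (0.86), Rbmx (0.82) and Ptprv (0.79).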

How the data were processed

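The authors deposited 1 intensity for each probe set on each array, on a linear scale, which per the submitters' processing notes was made with RMA. Its version, and whether all arrays went through it jointly, were not given in the sources used here. Per the labels' protocols, RNA was extracted with TRIZOL, amplified and turned into biotinylated cRNA. The file holds 12488 probe sets, of which 66 controls were left out and 10833 have 1 gene symbol in the platform annotation. RMA compresses the differences of dim probe sets, and the number of arrays limits the precision.

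Log2 intensities were fitted by lmFit and eBayes of limma 3.58.1 (R 4.3.3), in 1 model of the 6 groups on all 16 arrays, in which the groups share 1 spread per probe set. Tests were two-sided. Contrasts were innate-like minus adaptive and the differences between pairs, adjusted by Benjamini-Hochberg over 12422 probe sets and called under 0.05. The fit was tested on simulated data with independent noise on each array, so that test does not cover arrays that move together. Values given as ± are SE, and intervals are 95% intervals of the difference, unadjusted.

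Replicate numbers were taken to pair the T cell arrays, because same-numbered arrays departed from their group means together, with correlations of 0.65 to 0.76 in NKT and CD4T and of 0.60 to 0.66 in CD8aaT and CD8abT (minimum 0.1). This pairing comes from the data, not a label. In B1 and B2 the correlation was 0.69, but 2 arrays per group were taken as too few for a pairing there. For the receptors in the T cell pairs the blocked value is given where it changes a call. For the genes of the other lists it is given in some cases only. Over all probe sets, blocked shares were taken only for calls higher in CD8aaT and for the splenic against the RTOC pair. Other blocked counts therefore have no share beside them.

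All member probe sets were named. From each pathway list the called genes were named on the brightest probe set per gene, or the largest difference where none was called, a few partner chains and a few genes called with the block being added after their values were seen. For each receptor the 3 genes most alike by Pearson correlation were named. Members and lists were chosen with earlier results of these data known. Alternatives were an offset of 32, other normalizations, a filter on dim probe sets, the replicate block, left-out arrays, the pair's arrays alone, the beta-actin ratio as a covariate and an intensity trend.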

Additional observations from a re-analysis of the deposited data

Results flagged for a closer look

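For the brighter Il12rb1 probe set the NKT minus CD4T difference exceeded the B1 minus B2 difference by 1.48 on the log2 scale, a contrast that passed the test. The call held with 11 of 16 arrays left out in turn, and the adjusted p from limma rose to 0.1163 without B2 replicate 1, 0.05231 without B2 replicate 2, 0.1231 without B1 replicate 2, 0.05203 without NKT replicate 2 and 0.05113 without NKT replicate 3.

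For Il18rap the same contrast was 1.39 and passed the test. It held with 13 of 16 arrays left out, and the adjusted p was 0.08093 without B2 replicate 1, 0.06106 without B2 replicate 2 and 0.1138 without B1 replicate 2.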

How the results depend on the processing

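With the replicate block the number of receptor probe sets called was 2 in place of 0 for CD8aaT against CD8abT, 1 in place of 0 for B1 against B2 and 8 in place of 2 for the differences between pairs, and it stayed at 3 in the NKT pair. Calls over all probe sets rose with the block too, from 0.153% to 2.62% as higher in CD8aaT. For the splenic against the RTOC pair they rose from 0.692% to 3.02%. No such share was taken for the other counts, which therefore do not single out the receptors. Among the differences between pairs that involve the B cells, the block added the dimmer Il12rb1 (1.31, adjusted p = 0.02162) and brighter Il4ra (0.74, adjusted p = 0.02838) probe sets for NKT against the B cell pair and Il7r (2.16, adjusted p = 0.02446) for the RTOC against the B cell pair. In the B cell pair it was Il4ra, at -0.95 with an adjusted p of 0.001831 under the block, where 2 arrays per group are too few to show a pairing. Without replicate 1 of every group, 1 was called in the B cell pair (Il4ra, adjusted p = 0.04372). The block without replicate 2 of CD8aaT and CD8abT, chosen after seeing the data, called 1 in the RTOC pair, where Il2rb turned to -0.0548. With the beta-actin covariate Il2rb turned to -0.0897 and the dimmer Il4ra probe set to 0.15 in that pair. With 1 array left out in turn the calls were 2 to 3 in the NKT pair, 0 in the RTOC and B cell pairs, and 0 to 4 for the differences between pairs; the highest came without CD8abT replicate 1. Differences near 0 changed sign there: in NKT Il7r (-0.0105 to 0.60) and Il4ra (-0.58 to 0.11 brighter, -0.38 to 0.0712 dimmer), in CD8aaT the dimmer Il12rb1 (-0.56 to 0.11) and Il4ra (-0.34 to 0.11) probe sets and Il2rb (-0.0387 to 0.0783), and in B1 Il12rb1 (-0.22 to 0.0032 brighter, -0.0615 to 0.36 dimmer), Il18rap (-0.25 to 0.0559), Il18r1 (-0.27 to 0.0668), the dimmer Il4ra (-0.45 to 0.0878) and Ifngr1 (-0.27 to 0.0294). The brighter Il12rb1 probe set and Il18rap in NKT kept direction and call under all 25 alternatives (1.03 to 1.61 and 0.93 to 1.52). The causes were not tested. The dim filter left some receptor probe sets without a value.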
